A study of Mus musculus with 4 samples.

Results

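Proliferating T cells were taken as the cells in which both a T cell receptor complex and a division program were read. A member had 2 or more UMIs (unique molecular identifiers, each a counted transcript) of Cd3e, Cd3d and Cd3g together, 2 or more of Mki67 and Top2a together, and no more than 2 of the myeloid gene Lyz2. Cells with fewer than 500 genes or with over 10% mitochondrial UMIs were left out. The rule found 1782 members among 35372 kept cells, which is 5.04% of them, and among 8710 T cells (the same rule without Mki67 and Top2a), which is 20.5%. Mki67 encodes a protein that coats mitotic chromosomes, and Top2a encodes the topoisomerase that untangles sister chromatids. The members were chosen by measured UMIs of these genes, so their levels are a description and support nothing.

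A T cell that meets its antigen leaves quiescence, grows, switches its metabolism and enters repeated rounds of division. Before S phase, MCM helicases are loaded on replication origins. E2F factors switch on the enzymes of DNA and nucleotide synthesis, and histone genes are transcribed while DNA is copied. Cyclin B with Cdk1, the kinesins and the kinetochore proteins then carry the cell through mitosis. In tumours and their draining nodes, dividing T cells include CD8 cytotoxic cells, conventional CD4 cells and regulatory T cells, and blockade of the PD-1 pathway acts on T cells that carry this inhibitory receptor.

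The study profiled mouse cells labelled as lymph node with droplet 3' single-cell RNA sequencing, in a series whose title concerns ovarian tumours, glycan structures and checkpoint blockade. Its 4 libraries are ctrl (the control), 2DG (2-deoxy-D-glucose, a glucose analogue that blocks glycolysis and also enters glycan synthesis), aPDL1 (by its name an antibody against PD-L1) and 2DG_aPDL1 (the combination). The design text names young and aged as well as treated and naive mice. The strain, age, tumour line, dose, timing and number of animals behind each library are not given in the sources used here. Each group was thus 1 library, no difference between groups has a test, and an effect of treatment and a difference between libraries cannot be told apart. The 95% intervals below cover counting error only.

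Depth was similar among the libraries, but the ctrl library stood apart in its cells. Total UMIs per library ranged from 61859753 to 73885214. The members numbered 95 in ctrl, 709 in 2DG, 523 in aPDL1 and 455 in 2DG_aPDL1, and their summed UMIs were 1031940, 7118937, 5312708 and 4557681. T cells were 451 of 9091 kept cells in ctrl, against 2816 of 7943, 2683 of 9044 and 2760 of 9294. Cells with 20 or more UMIs of the neutrophil genes S100a8 and S100a9 were 34.3% of kept cells in ctrl and 3.32%, 2.45% and 2.06% in the others. The second pair of each comparison below does not contain the ctrl library. Between 74 and 81 barcodes of a library also occurred in another, and these were 2 to 8 members of a library.

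The lymph node label was set against its markers over all kept cells. Cells with 2 or more UMIs of the B cell genes Cd79a, Cd79b and Ms4a1 were 1.10%, 2.13%, 3.20% and 5.90% of kept cells in ctrl, 2DG, aPDL1 and 2DG_aPDL1, the order used for every set of 4 values from here on. Cells with 2 or more UMIs of Pdpn, a gene of node stroma that macrophages can also express, were 10.5%, 4.62%, 5.72% and 5.46%. Cells with 2 or more UMIs of the node chemokines Ccl21a and Ccl19 together were 0 in each library, which allows at most 0.0464% of kept cells. Cells with 2 or more UMIs of Madcam1, Glycam1, Cdh5 and Prox1 together were at most 0.108% of kept cells.

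The word proliferating held mainly for the members with the most Mki67 and Top2a UMIs. The summed level of 12 T cell markers in the members was 4510, 5440, 6300 and 6860 CPM (UMIs of a gene scaled by all UMIs of the same cells). In the kept cells outside the T cell rule it was 53.3, 332, 378 and 365 CPM. These markers include Cd3e, Cd3d and Cd3g, which the rule used, so that difference was set in part by the rule. Cd8a and Cd8b1, which the rule did not use, summed to 295, 472, 657 and 784 CPM in the members. Outside the T cell rule they summed to 2.03, 21.5, 29.5 and 26.9 CPM. Proliferation was checked on 8 markers that the rule did not use, among them Birc5, a survivin of the chromosomal passenger complex, Rrm2, a subunit of ribonucleotide reductase, and Stmn1, a microtubule destabiliser. Their summed level was 67.8, 103, 116 and 156 CPM in members with exactly 2 UMIs of Mki67 and Top2a. It was 2159, 1871, 2062 and 2311 CPM in members with 6 or more. T cells just outside the threshold, with 1 such UMI, had 30.4, 67.8, 95.6 and 81.3 CPM, and T cells with none had 28.5, 48.9, 54.7 and 42.9 CPM. The members just inside the threshold were thus far nearer to the T cells just outside it than to the members with 6 or more. Cells that met the rule but for a Cd3 sum of 1 numbered 6, 33, 27 and 18, and those that met it but for 3 or more Lyz2 UMIs numbered 8, 39, 42 and 36.

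Counted per cell, 85.2%, 89.5%, 94.4% and 97.5% of the members with 6 or more UMIs had at least 3 UMIs of the 8 markers. Among members with 2 to 5 UMIs the shares were 11.8%, 16.2%, 20.9% and 13.4%. T cells without Mki67 or Top2a UMIs had 1.08%, 2.16%, 2.49% and 1.79%. Members with 6 or more UMIs, called the upper range below, were 27, 228, 178 and 157 cells, or 28.4%, 32.2%, 34.0% and 34.5% of the members. The upper range was set at 6 after the values were seen. Its cells were deeper, with a median of 12710 UMIs in 2DG_aPDL1 against 7050.5 for members with exactly 2 and 5259 for T cells with none. The part of depth in these shares was not tested.

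**Figure D1:**
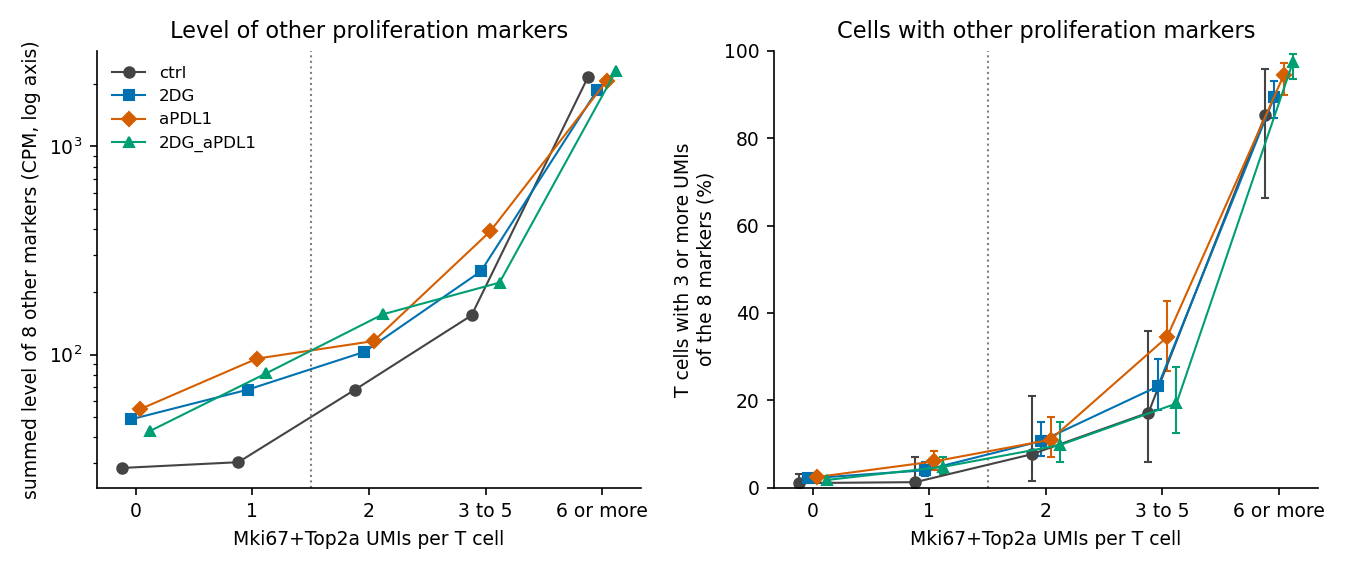
Summed level of 8 proliferation markers outside the rule (left, CPM on a log axis) and share of T cells with 3 or more UMIs of them (right, percent, bars are exact binomial 95% intervals), by the number of Mki67 and Top2a UMIs of a T cell and by library. Points right of the dotted line are members, and those with 6 or more UMIs reach 1871 to 2311 CPM while members with 2 lie between 67.8 and 156 CPM.

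Among marker lists of other cell types, neutrophil genes in the ctrl members had the highest sum. The summed level of 9 neutrophil markers was 1870, 425, 175 and 313 CPM in the members. An S100a9 UMI was found in 37.9%, 4.8%, 3.06% and 2.42% of members, and in 29.4%, 2.70%, 2.43% and 1.57% of T cells without Mki67 or Top2a. The 8 B cell markers summed to 45.5, 68.8, 92.4 and 153 CPM, and a Cd79a UMI was found in 0, 7, 3 and 11 members. The 12 monocyte and macrophage markers stayed between 174 and 280 CPM, and the 9 dendritic cell markers between 559 and 871 CPM. The 8 epithelial and tumour markers summed to 10.7, 5.48, 8.85 and 5.05 CPM in the members. In the kept cells outside the T cell rule they summed to 4.06, 49.1, 11.8 and 16.0 CPM. Of these markers 6 had a UMI in the members, and Cldn4 and Wfdc2 were at 0. A doublet score marked 9.47%, 9.45%, 9.94% and 11.4% of members, against 9.68%, 4.38%, 4.56% and 4.87% of T cells without Mki67 or Top2a. The part of doublets and free RNA in the results was not tested beyond the values given beside them.

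Members made up 21.1% of T cells in ctrl (95% interval 17.4 to 25.1%), 25.2% in 2DG (23.6 to 26.8%), 19.5% in aPDL1 (18.0 to 21.0%) and 16.5% in 2DG_aPDL1 (15.1 to 17.9%). The 2DG share was above those of aPDL1 and 2DG_aPDL1 beyond counting error, and the interval of ctrl met those of the other 3 libraries. When each T cell was thinned to 3000 UMIs, so that depth was equal, the shares were 10.7% (7.55 to 14.5%), 11.4% (10.2 to 12.8%), 10.8% (9.59 to 12.2%) and 8.63% (7.55 to 9.81%). This left out 63, 130, 188 and 169 shallower T cells. After thinning only the pair of 2DG and 2DG_aPDL1 had intervals that did not meet. The upper range held 5.99% (3.98 to 8.59%), 8.10% (7.12 to 9.17%), 6.63% (5.72 to 7.64%) and 5.69% (4.85 to 6.62%) of T cells. Of all kept cells, members were 1.05%, 8.93%, 5.78% and 4.90%, lowest in ctrl, the library with the fewest T cells.

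Members differed between libraries in lineage. Cells with a UMI of Cd8a or Cd8b1 and none of Cd4, called the Cd8 gate, were 26.3% of members in ctrl (17.8 to 36.4%), 48.1% in 2DG (44.4 to 51.9%), 67.9% in aPDL1 and 69.7% in 2DG_aPDL1. Cd4 cells without a Foxp3 UMI were 32.6%, 25.7%, 14.1% and 15.4%. Cd4 cells with a UMI of Foxp3, the factor that defines regulatory T cells, were 25.3%, 11.3%, 8.99% and 4.84%. The T cells as a whole had the same order, with 29.1%, 50.04%, 62.4% and 63.9% in the Cd8 gate. Members of the upper range in the Cd8 gate were 33.3%, 47.8%, 71.3% and 75.8%. Cells with neither co-receptor and a UMI of Trdc, the delta chain constant region, were 0, 8, 0 and 2 members.

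The share of T cells that met the rule was also read within each lineage. In the Cd8 gate it was 19.1%, 24.2%, 21.2% and 18.0%. Among Cd4 cells without Foxp3 it was 22.5%, 28.7%, 17.1% and 16.0%. Among Foxp3 cells it was 42.1% in ctrl (29.1 to 55.9%), 29.2% in 2DG, 28.1% in aPDL1 and 18.2% in 2DG_aPDL1 (11.8 to 26.2%). The ctrl value rested on 24 of 57 cells, and at 3000 UMIs it was 3 of 17 cells, or 17.6%, with 6.67%, 9.86% and 5.17% in the other libraries. At that depth the intervals of the Foxp3 cells met. Among T cells without UMIs of Cd8a, Cd8b1, Cd4 or Trdc the share at own depth was 12.04%, 17.4%, 9.40% and 7.83%. Thinned shares in the Cd8 gate were 8.42%, 10.9%, 11.4% and 9.30%.

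**Figure D2:**
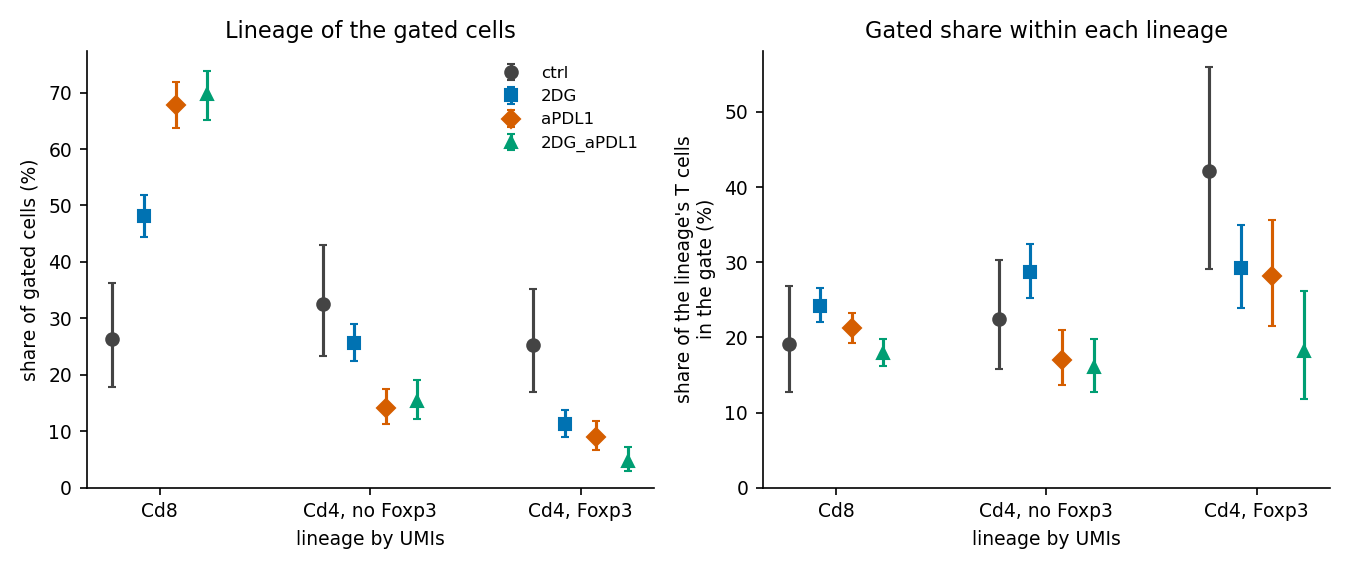
Share of gated cells (the members) in each lineage (left, percent) and share of each lineage's T cells that met the rule (right, percent), by library, with exact binomial 95% intervals. The Cd8 share is 26.3% in ctrl and 69.7% in 2DG_aPDL1, and the widest interval on the right belongs to the Foxp3 cells of ctrl.

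At equal depth, a smaller share of the T cells with a UMI of a resting-cell gene met the rule in each library, though most intervals met. Of T cells with a UMI of Klf2, a factor that keeps T cells quiescent and recirculating, 5.88%, 8.13%, 7.16% and 6.85% were members, against 12.4%, 11.9%, 11.5% and 9.17% of those without. For Tcf7, the factor of naive and stem-like T cells, it was 0%, 6.90%, 5.10% and 4.55% against 11.6%, 11.9%, 11.4% and 8.99%. The value of 0% stands for 0 of 27 cells, with an upper limit of 12.8%, and the intervals were apart in aPDL1 only. Cells with a UMI of Gzmb, a protease of killer cells, were members in 17.6%, 13.3%, 14.8% and 10.7% of cases, against 9.39%, 10.8%, 9.07% and 7.41% without it, again with intervals apart in aPDL1 only. For Ctla4, an inhibitory receptor of activated and regulatory cells, the shares were 10.2%, 9.57%, 9.36% and 7.82% with a UMI and 11.8%, 14.96%, 13.9% and 12.1% without. For Pdcd1, which encodes PD-1, they were 8.87%, 9.41%, 11.6% and 7.64% with and 11.8%, 12.6%, 10.2% and 9.42% without. PD-1 thus had no single direction over the 4 libraries, while the Ctla4 direction was the same in each and its intervals were apart in all but ctrl. In a cell of fixed depth, UMIs of these genes and of Mki67 share the same total.

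The division program was read by setting members against T cells without Mki67 or Top2a UMIs (279, 1483, 1646 and 1785 cells). Since the rule parts these cells, the contrast is a description. A gene was counted when its log2 ratio of CPM, with 0.5 UMIs added, was beyond 1.5-fold in the same direction in all 4 libraries, with at least 50 UMIs in the higher group of each. The same threshold of 50 UMIs let genes in through the group where they are high. Of 5184 genes with enough UMIs, 227 were higher in the members (4.38%) and 60 were lower (1.16%).

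Origin licensing comes before S phase. Of 18 licensing genes, 6 had enough UMIs and 5 were higher, namely Mcm3, Mcm4, Mcm5, Mcm6 and the licensing inhibitor Gmnn. The median log2 ratio of the 6 was 1.69, 1.56, 1.54 and 1.95, beside -0.04, -0.03, -0.02 and -0.04 over the 5184 genes. Mcm3, a subunit of the helicase ring, stood at 82.4, 120, 111 and 106 CPM in the members and at 19.4, 20.4, 19.8 and 19.3 CPM in the other cells. Mcm6, another subunit, stood at 136, 184, 178 and 174 CPM against 68.6, 94.1, 91.6 and 77.3 CPM. The ctrl members had the lowest level of both, and the 3 treated libraries lay within 106 to 120 CPM for Mcm3. All 18 genes summed to 253.7, 325.1, 315.5 and 289.5 CPM without Mki67 or Top2a, to 387, 546, 584 and 501 CPM in members with 2 to 5 UMIs, and to 1170.0, 1509, 1490.0 and 1612 CPM in the upper range.

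DNA synthesis and nucleotide supply come next. Of 28 genes, 14 had enough UMIs and 13 were higher, with medians of 1.71, 1.91, 1.96 and 2.12. Pcna, the sliding clamp of the polymerases, stood at 209, 193, 192 and 275 CPM against 92.9, 81.4, 87.1 and 82.9 CPM. Pola1, the catalytic subunit of the primase polymerase, stood at 209, 265, 267 and 261 CPM against 47.9, 65.6, 62.5 and 52.2 CPM. Dut, which keeps uracil out of DNA, stood at 173, 207, 223 and 274 CPM against 61.3, 52.1, 59.9 and 72.5 CPM. In these genes members lay above the other T cells of each library, and 2DG_aPDL1 held the highest value for Pcna and Dut. Atad2, an ATPase of replicating chromatin and the gene of this list that missed the size rule, stood at 211, 267, 242 and 256 CPM against 164, 217, 186 and 185 CPM.

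Mitotic genes had larger median ratios than replication genes in each library, which is a description and not a finding about the lists. The rule chose the members by Mki67 and Top2a, whose products act on mitotic chromosomes and sister chromatids, so it can set this order in part. Genes that are low in the other T cells, such as Cdk1, also met the UMI minimum through the members alone, which favours large ratios. The part of the rule and of the minimum in this order was not tested. Of 21 mitotic kinases and cyclins, 6 had enough UMIs and 5 were higher (Ccna2, Ccnb2, Cdk1, Bub1b and Ube2c), with medians of 4.91, 3.58, 4.0 and 4.36. Cdk1, the kinase that drives entry into mitosis, stood at 52.3, 50.9, 49.1 and 64.9 CPM against 2.43, 3.85, 3.52 and 2.17 CPM. Ube2c, the ubiquitin carrier of the anaphase-promoting complex, stood at 128, 97.6, 109 and 142 CPM against 2.43, 3.97, 6.72 and 3.66 CPM. Of 34 genes of spindle, kinetochore and cytokinesis, 25 had enough UMIs and 24 were higher, with medians of 3.38, 2.78, 2.93 and 3.12. Tuba1b, a tubulin of the spindle, stood at 171, 173, 203 and 173 CPM against 26.1, 34.0, 36.2 and 28.9 CPM. Outside the cell cycle lists the largest ratios belonged to 3 histone genes and to Neil3, Cdca3, Knl1, Cenpp and Cit. Neil3, a DNA glycosylase, stood at 64.9, 45.7, 42.2 and 46.1 CPM with at most 0.794 CPM in the other T cells, and Knl1, a kinetochore scaffold, at 114, 81.6, 84.7 and 90.8 CPM with at most 3.64 CPM.

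The promoters of Mcm6 and Cdk1 show the letters that are known for these timings, and are given because both genes were among those higher in each library. E2F sites are known from promoters of replication genes, and the CHR element and CCAAT boxes from promoters of mitotic genes. The stretches are the 250 bases before the RefSeq start on GRCm38.p6, with matches in capitals: TTTCCCGC, TTTGGCGC, TTTGCCGC and TTTCGCGC for E2F, TTTGAA for CHR and CCAAT, each on either strand. Mcm6 lies on the minus strand at chr1:128359706-128359955 and holds 3 E2F matches, of which 2 overlap, 2 CCAAT matches and 0 CHR matches. Cdk1 lies on the minus strand at chr10:69352913-69353162 and holds 1 E2F match, 3 CCAAT matches and 2 CHR matches.
Mcm6: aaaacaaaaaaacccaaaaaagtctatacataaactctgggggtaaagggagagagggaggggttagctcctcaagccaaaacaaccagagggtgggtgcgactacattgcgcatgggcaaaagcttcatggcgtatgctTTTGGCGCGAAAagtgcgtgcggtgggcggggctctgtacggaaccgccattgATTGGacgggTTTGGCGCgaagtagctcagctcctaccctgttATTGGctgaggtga
Cdk1: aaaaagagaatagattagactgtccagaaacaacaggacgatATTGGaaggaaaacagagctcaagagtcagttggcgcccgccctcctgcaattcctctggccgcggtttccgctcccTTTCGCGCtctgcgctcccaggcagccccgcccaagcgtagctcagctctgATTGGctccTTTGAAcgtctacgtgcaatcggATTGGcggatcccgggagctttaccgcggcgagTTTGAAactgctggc
Of the 27025 mouse promoters of this length, 16.3% hold the CHR letters, 34.5% the CCAAT letters and 1.91% the E2F letters. Among the licensing genes, 14 of 18 were matched to a promoter, and 3 hold CHR (21.4%), 10 CCAAT (71.4%) and 6 E2F (42.9%). Of the synthesis genes 22 of 28 were matched, with 2 (9.09%), 11 (50%) and 3 (13.6%). Of the mitotic kinases and cyclins 17 of 21 were matched, with 5 (29.4%), 14 (82.4%) and 1 (5.88%). Of the spindle genes 29 of 34 were matched, with 10 (34.5%), 18 (62.1%) and 2 (6.90%). A match is a description of the letters and says nothing of binding in these cells.

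Genes of G1 and of quiescence were lower in part. Ccnd3, the cyclin D of mature T cells, stood at 376, 332, 353 and 330 CPM in the members against 733, 703, 800 and 769 CPM, and at 169, 168, 188 and 171 CPM in the upper range. Its partner Cdk4 and the factor E2f3 were higher. Of 13 measured CDK inhibitors and quiescence genes, Btg2, Klf2 and Foxp1 were lower and 0 were higher. Cdkn1a, which encodes the CDK inhibitor p21, stood at 121, 46.8, 53.8 and 73.5 CPM against 81.9, 44.7, 52.0 and 64.0 CPM, and did not pass the size rule. Cdkn2a, the locus of p16, was low throughout, at 14.5, 14.5, 9.60 and 10.8 CPM against 4.25, 9.07, 4.48 and 2.77 CPM. Its log2 ratios were 1.72, 0.67, 1.1 and 1.95, with too few UMIs to be counted.

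Genes of naive and memory T cells formed the clearest lower group. Of 15, 11 had enough UMIs and 5 were lower (Tcf7, Lef1, Klf2, Bach2 and Foxp1), with medians of -0.89, -0.70, -0.84 and -0.93. Of the 11, 10 had a ratio below 0 in each library, beside 1663 of all 5184 genes. Tcf7 stood at 16.5, 25.1, 18.3 and 16.7 CPM against 68.6, 55.7, 51.2 and 49.0 CPM, and at 9.16, 19.5, 8.41 and 12.5 CPM in the upper range. Bach2, a repressor of effector differentiation, stood at 143, 143, 141 and 158 CPM against 306, 269, 309.5 and 388 CPM. The 8 lower genes with the largest ratios outside the cell cycle lists were Tcf7, Ccnd3, Zbtb16, Klf3, Pde2a, Fgf13, Fhit and Trdc. Zbtb16, the factor PLZF of innate-like T cells, stood at 1.94, 8.15, 1.51 and 1.76 CPM against 34.0, 30.6, 30.2 and 11.4 CPM. Klf3, a repressor of the Klf family, stood at 9.69, 13.8, 13.2 and 17.1 CPM against 52.8, 33.0, 38.1 and 45.3 CPM. Trdc, the constant gene of the delta receptor chain, stood at 0, 16.7, 3.01 and 1.32 CPM against 31.6, 34.8, 8.64 and 12.2 CPM.

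Most oxidative phosphorylation genes had ratios above 0, while few metabolic genes passed the size rule. Of 51 nuclear genes of oxidative phosphorylation, 49 had enough UMIs, with medians of 0.42, 0.45, 0.47 and 0.47. Of the 49, 45 had a ratio above 0 in each library, beside 1445 of all 5184 genes. Ndufb8, Ndufs8, Cox5b, Cycs, Atp5b and Atp5j passed the size rule. Cycs, which encodes cytochrome c, stood at 79.5, 89.1, 91.1 and 113 CPM against 52.2, 52.0, 52.9 and 60.5 CPM. Of 22 glycolysis genes, 17 had enough UMIs, with medians of 0.23, 0.31, 0.42 and 0.40, and Tpi1 passed. Ldha, lactate dehydrogenase A, stood at 405, 354, 417 and 432 CPM against 280, 224, 254 and 271 CPM, and Gapdh, the glycolytic dehydrogenase, at 984, 951, 1100 and 990 CPM against 679, 607, 661 and 653 CPM. The Myc and ribosome biogenesis genes had medians of 0.58, 0.66, 0.51 and 0.50, with Nop58 and Nme1 past the rule. Of 10 one-carbon and amino acid genes with enough UMIs, Phgdh, Paics and Impdh2 were higher, with list medians of 0.02, 0.52, 0.25 and 0.18. The glucose and hypoxia genes had medians of -0.33, -0.27, -0.05 and -0.28, and 0 of 8 passed. Txnip, which restrains glucose uptake, stood at 142, 122, 113 and 99.0 CPM against 188, 257, 191 and 175 CPM.

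Over all members, checkpoint and effector genes were close to the level of the other T cells, while in the upper range their lists summed lower. Of 11 inhibitory receptors, 17 exhaustion and effector transcription factors, 17 cytotoxic genes, 11 costimulatory receptors and 13 cytokine receptors with enough UMIs, 0 passed the size rule in either direction. Pdcd1 stood at 195, 166, 246 and 220 CPM against 203, 195, 242 and 237 CPM. Havcr2, which encodes TIM-3, stood at 221, 189, 217 and 276 CPM against 188, 147, 200 and 274 CPM. Lag3, a receptor for MHC class II, stood at 126, 160, 233 and 233 CPM against 141, 210, 259 and 255 CPM. In the upper range Lag3 was lower, at 112, 107, 140 and 116 CPM. All inhibitory receptors summed there to 1547, 1259, 1497 and 1579 CPM, against 2166, 1985, 2048 and 2548 CPM without Mki67 or Top2a. The cytotoxic genes summed to 5965, 7896, 8652 and 11250 CPM against 7800, 12570, 13720 and 17060 CPM. The sums of the transcription factors, costimulatory receptors and cytokine receptors were also lower there in each library. Tox, a factor of chronically stimulated T cells, stood at 1970.0, 1810.0, 1570.0 and 1420.0 CPM against 2300.0, 1890.0, 1840.0 and 1570.0 CPM. Immediate early genes, which respond within minutes of stimulation, had medians of -0.39, -0.51, -0.58 and -0.43, and Dusp2 was lower. Of 17 homing and chemokine receptors, 14 had a ratio below 0 in each library, beside 1663 of all 5184 genes.

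**Figure D3:**
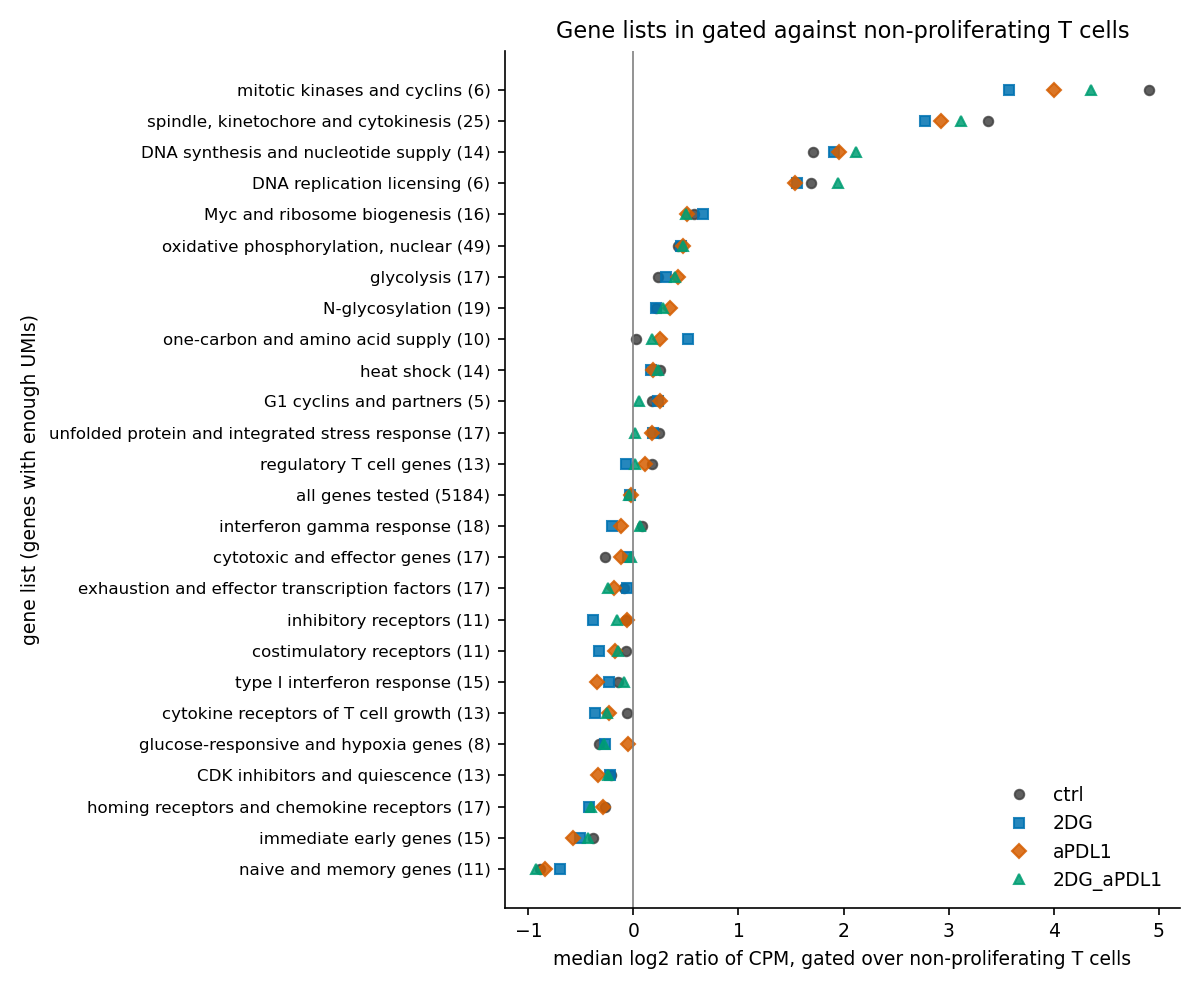
Median log2 ratio of CPM of each gene list in gated cells (the members) over T cells without Mki67 or Top2a, by library, with the number of genes that had enough UMIs in brackets. Mitotic and spindle lists lie furthest right, the naive and memory list lies furthest left at -0.70 to -0.93, and the median of all genes tested lies near 0. The place of the mitotic and spindle lists is a description, since the rule used Mki67 and Top2a.

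Within the Cd8 gate 2244 genes had enough UMIs, and 70 were higher (3.12%) and 42 lower (1.87%). Pcna and Dut, Ube2c, and 5 of 6 spindle genes were among the higher. In this gate Tpi1, Pgk1 and Ldha of glycolysis and Lgals1, which encodes galectin-1, were also higher. Il7r, the interleukin 7 receptor of resting T cells, was lower there along with Tcf7, Lef1, Bach2 and Foxp1.

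S phase and mitosis genes were weighed by their summed UMIs. The ratio of S to G2 and M phase UMIs in the members was 0.782, 1.08, 1.01 and 1.04, the lowest in ctrl. In T cells without Mki67 or Top2a UMIs the ratio was 1.72, 1.77, 1.97 and 1.83, so it is not a measure of phase alone. In proliferating Lyz2 cells of the same libraries (252, 162, 152 and 174 cells with over 2 Lyz2 UMIs and no Cd3 UMI) it was 0.836, 0.776, 0.961 and 0.682. The share of members with more S than G2 and M UMIs at 3000 UMIs was 50% (39.4 to 60.6%), 56.2%, 59.0% and 58.3%. The interval of ctrl contained the other 3 shares, so a difference was not detectable with its 92 cells of enough depth. The part of members with 2 to 5 Mki67 and Top2a UMIs in these ratios and shares was not tested.

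The 2DG comparison asked how members differed when the glucose analogue was given, alone (2DG over ctrl) and on top of aPDL1 (2DG_aPDL1 over aPDL1). A gene was counted when it was beyond 1.5-fold the same way in both pairs, with 50 UMIs in the higher library of each. Of 8592 genes with enough UMIs, 36 were higher (0.419%) and 121 lower (1.41%). With TMM scaling the counts were 68 and 85, and with DESeq2 size factors 63 and 88, so the share of higher genes went from 22.9% to 44.4% and 41.7%. Another 64 genes were higher in the first pair and lower in the second, and 85 the other way round. In single pairs the shares were 8.48% higher and 9.85% lower for 2DG over ctrl, and 4.23% and 7.13% for 2DG_aPDL1 over aPDL1. Every ratio to ctrl rests on its 95 members, and in the Cd8 gate on only 25 of them.

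Metallothioneins and a peptide transporter led the lower genes. Mt1, a zinc-binding metallothionein, stood at 285, 66.2, 200 and 88.6 CPM, with log2 ratios of -2.11 and -1.17. Mt2, its close relative, stood at 79.5, 13.6, 45.9 and 11.4 CPM, with ratios of -2.55 and -2.00. Slc15a2, a proton-coupled peptide transporter, stood at 54.3, 11.4, 28.2 and 3.51 CPM, with ratios of -2.26 and -2.97. Slc15a2 was also called lower with aPDL1, with ratios of -0.95 and -1.66. For each of these genes both libraries given 2DG lay below both libraries without it. The same held for the other T cells, with 264, 53.6, 87.8 and 66.1 CPM of Mt1 and 67.4, 17.2, 36.4 and 5.73 CPM of Slc15a2. Within the Cd8 gate Mt1 was at 162, 74.9, 238 and 76.7 CPM. Tbc1d8, a GTPase-activating protein, stood at 33.9, 10.8, 28.2 and 9.65 CPM. The rule also named Dscaml1 and Mgl2, whose ctrl level came from single cells: 1 cell held 89 of 96 Dscaml1 UMIs and 1 cell held all 35 Mgl2 UMIs. Without the cell with the most UMIs of the gene in each library, the log2 ratio of 2DG over ctrl was 0.84 for Dscaml1, the opposite direction, and Mgl2 had 0 UMIs left in ctrl. For 2DG_aPDL1 over aPDL1 the ratios without those cells were -2.34 and -3.72, still lower.

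Ccl4, a chemokine of activated killer cells, was the gene with UMIs in the most members among the higher genes named by the size of their ratios. It stood at 309, 846, 694 and 1570.0 CPM, with log2 ratios of 1.45 and 1.17, and had UMIs in 40, 424, 349 and 339 members. Its order was ctrl lowest, then aPDL1, 2DG and 2DG_aPDL1. Its level in the Cd8 gate was 557, 1180.0, 779 and 1610.0 CPM. Of genes named after their values were seen, Cd7, a co-receptor of T and NK cells, stood at 14.5, 54.1, 29.7 and 61.7 CPM, and Serpine2, a protease inhibitor, at 33.9, 67.6, 64.0 and 164 CPM. Gzmf, a granzyme, ranked first but rested on few cells, since 257 of its 276 UMIs in 2DG and 135 of its 152 in 2DG_aPDL1 came from 1 cell each. The B cell genes Bank1 and Ebf1 also passed, with 0 UMIs in ctrl, and the summed B cell markers had the same order of libraries. Without the top cell of each library neither passed for 2DG, since too few UMIs were left in the 2DG library, while their log2 ratios of 2DG_aPDL1 over aPDL1 were then 1.74 and 2.43. Sox5, a factor of the SOX family, had UMIs in only 2, 28, 22 and 31 members, and its smaller ratio was -0.55 once cells marked as doublets were removed. Gm13571, an unnamed transcript, stood at 3.88, 11.4, 8.28 and 22.4 CPM.

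Among lists, genes that respond to glucose and hypoxia had the lowest medians with 2DG. Of 12, 9 had enough UMIs and 3 were called lower (Bnip3, Egln3 and Pdk1), with medians of -1.08 and -0.39 beside -0.01 and -0.07 over all genes. Of the 9, 7 were below 0 in both pairs, beside 2560 of all 8592 genes. Pdk1, a kinase that restrains the oxidation of pyruvate in mitochondria, stood at 41.7, 19.7, 20.7 and 10.8 CPM. Egln3, an oxygen sensor, stood at 67.8, 17.3, 12.05 and 7.02 CPM, and Bnip3, a mitophagy receptor, at 54.3, 7.02, 12.4 and 5.27 CPM. The ctrl library held the highest value of each, and aPDL1 alone was below it too; Egln3 and Pdk1 were also called lower with aPDL1, where the list had medians of -1.06 and -0.40. Glycolysis genes had medians of -0.22 and -0.22 and 0 called, with 13 of 18 below 0 in both pairs, beside the same 2560 of 8592 genes. Of the same 18, 2 were called lower, Pfkl, of phosphofructokinase, and Slc16a3, a lactate exporter, in the Cd8 gate. There 30 of 7097 genes were higher (0.423%) and 73 lower (1.03%).

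Glucose carriers and the first enzyme of glycolysis did not pass. Slc2a1, the transporter GLUT1, stood at 85.3, 63.8, 55.7 and 50.7 CPM, and Slc2a3, the transporter GLUT3, at 85.3, 85.3, 96.2 and 91.9 CPM. Hk2, the hexokinase that 2DG meets first, stood at 41.7, 41.7, 68.3 and 52.9 CPM. N-glycosylation genes, which build the glycan that 2DG can enter, had 33 of 42 with enough UMIs, medians of 0.15 and -0.17, and 0 called. The unfolded protein and integrated stress response had 23 of 25, medians of 0.13 and -0.05, and 0 called. Hspa5, the chaperone BiP of that response, stood at 371, 512, 547 and 531 CPM. Oxidative phosphorylation genes had 34 of 51 above 0 in both pairs, beside 1697 of all 8592 genes, with medians of 0.19 and 0.14, and 0 called.

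Some cytotoxic genes were called with 2DG. Of 22 cytotoxic genes 4 were called higher (Gzma, Gzmf, Ccl4 and Ccl5) and 1 lower (Gzme), beside 0.419% and 1.41% of all genes, with medians of 0.53 and 0.24. Gzmf, which rested on few cells as given above, was not called without its top cells. In the Cd8 gate Gzmf and Ccl4 were called higher and Gzme lower, while Gzma and Ccl5 were not called. The medians in the Cd8 gate were 0.17 and 0.14. Ccl5, a chemokine, stood at 1970.0, 3490.0, 3160.0 and 4830.0 CPM, lowest in ctrl and highest in 2DG_aPDL1. Immediate early genes had medians of -0.58 in the first pair and 0.62 in the second, and Dusp2 was called higher. Of 18 licensing, 28 synthesis, 21 mitotic and 34 spindle genes 0 were called in either direction. Beside 0.419% and 1.41% of all genes, 0 calls in lists of this length say little about division genes. The 15 regulatory T cell genes had medians of -0.62 and -0.29 with 0 called, beside the lower share of Foxp3 cells among members in 2DG and 2DG_aPDL1.

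For aPDL1 the pairs were aPDL1 over ctrl and 2DG_aPDL1 over 2DG, so this comparison shares all 4 libraries with the 2DG comparison. Of 8504 genes with enough UMIs, 69 were higher (0.811%) and 120 lower (1.41%). Of these, 13 were also called higher and 40 also called lower with 2DG. TMM scaling gave 78 and 97, and DESeq2 size factors 88 and 87, which took the share of higher genes from 36.5% to 44.6% and 50.3%. In single pairs the shares were 11.5% higher and 9.57% lower for aPDL1 over ctrl, and 4.13% and 7.0% for 2DG_aPDL1 over 2DG. Among members of the Cd8 gate 89 of 7207 genes were higher (1.23%) and 85 lower (1.18%).

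Inducible heat shock genes were among the lower genes. Hspa1a, an inducible HSP70, stood at 246, 121, 62.7 and 5.92 CPM, with log2 ratios of -1.97 and -4.33. Hspa1b, its twin gene, stood at 399, 156, 82.1 and 5.70 CPM, with ratios of -2.28 and -4.75. Each step from ctrl to 2DG, aPDL1 and 2DG_aPDL1 went down. The pair is nearly identical in sequence, so how reads were split between them is uncertain. In the Cd8 gate Hspa1a stood at 190.0, 111, 61.9 and 5.81 CPM, and in T cells without Mki67 or Top2a at 310.0, 136, 55.7 and 22.6 CPM. Both genes were also called lower with 2DG, with ratios of -1.03 and -3.38 for Hspa1a. Of 14 heat shock genes 4 were called lower, the others being Hsph1 and the co-chaperone Bag3, while Hspa8, a constitutive HSP70, stood at 1010.0, 1220.0, 1320.0 and 1270.0 CPM.

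Of the other lower genes the rule named, S100a8 had the library order of neutrophil markers and Ralyl was read in few cells. S100a8, a neutrophil protein, stood at 597, 128, 7.53 and 20.6 CPM, the same order of libraries as the summed neutrophil markers in the members. In 2DG, 826 of its 910 UMIs lay in 1 cell. Ralyl, an RNA-binding protein gene, had 72, 53, 23 and 2 UMIs in 5, 6, 5 and 2 members. Without the top cell of each library its ratios were -3.49 and -2.02, with too few UMIs in ctrl and 2DG to pass. Ttn, the giant sarcomere gene, stood at 233, 96.8, 53.8 and 21.5 CPM, and at 74.7, 26.5, 21.5 and 11 CPM in the Cd8 gate. Prickle1, of planar polarity, stood at 45.5, 19.2, 11.1 and 5.49 CPM but at 6.22, 1.78, 1.09 and 1.83 CPM in the Cd8 gate. Ttn and Prickle1 were also called lower with 2DG, with ratios of -1.27 and -1.32 for Ttn and -1.25 and -1.0 for Prickle1. The lineages of the members differed between the libraries, and the part of lineage in Ttn and Prickle1 was not tested beyond these values.

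Killer genes were higher with aPDL1 in the members as a whole. Of 21 cytotoxic genes with enough UMIs, 7 were called higher (Gzma, Gzmb, Prf1, Ccl4, S100a4, Serpinb6b and Serpinb9) and 2 lower (Gzme and Xcl1), with medians of 0.76 and 0.49 beside 0.03 and -0.04 over all genes. Gzmb stood at 233, 338, 485 and 720.0 CPM, with ratios of 1.06 and 1.09. Prf1, the pore former perforin, stood at 179, 247, 469 and 386 CPM, with ratios of 1.38 and 0.65. Both aPDL1 libraries lay above both others for these genes. Within the Cd8 gate, where the share of Cd8 cells cannot enter, Gzmb stood at 660.0, 579, 646 and 838 CPM and its smaller ratio was -0.03, so the call was lost. Prf1 stood there at 349, 387, 613 and 479 CPM. The gate kept 3 cytotoxic genes as higher, S100a4, Serpinb6b and Serpinb9, and Gzme as lower, with medians of 0.41 and 0.31. Serpinb9, which shields killer cells from their own granzyme B, stood at 49.4, 59.0, 84.5 and 119 CPM in the members.

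Other higher genes were Slc17a6, Ifitm1, 2310016D23Rik, Bank1, Sox5 and Ebf1. Slc17a6, a vesicular glutamate transporter gene, stood at 20.4, 26.4, 64.2 and 109 CPM with UMIs in 8, 66, 104 and 122 members, and at 34.2, 38.4, 82.6 and 125 CPM in the Cd8 gate. Ifitm1, an interferon-induced membrane protein, stood at 69.8, 38.1, 210.0 and 108 CPM with UMIs in 12, 54, 90 and 53 members. Klrc1, named after its values were seen, encodes the NK lectin receptor NKG2A and stood at 50.4, 48.7, 128 and 143 CPM and had UMIs in 16, 143, 243 and 234 members. In each of these the aPDL1 libraries were the highest. Bank1 had 0, 71, 105 and 215 UMIs in 0, 22, 12 and 18 members, and Ebf1, a B cell factor, had 0, 88, 99 and 202 UMIs. Without the top cell of each library Ebf1 had too few UMIs in aPDL1 to pass, while its ratio of 2DG_aPDL1 over 2DG was 3.06.

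**Figure D4:**
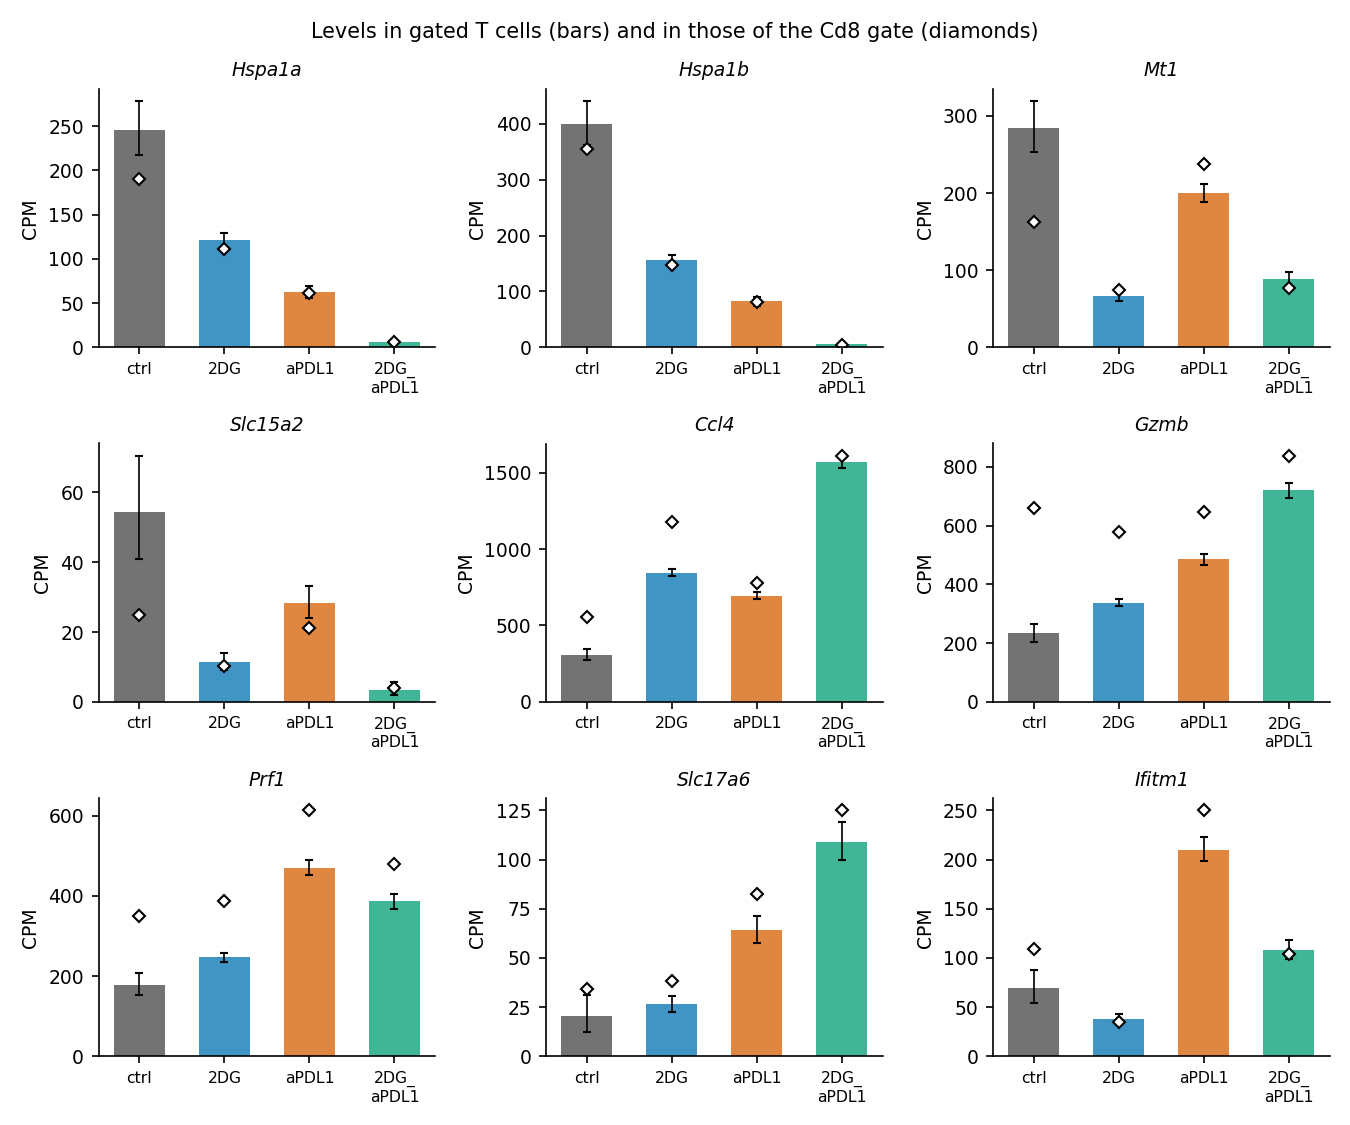
Level of 9 genes in the members (bars, CPM from 0, with exact Poisson 95% intervals of the summed UMIs) and in members of the Cd8 gate (diamonds), by library. Hspa1a and Hspa1b step down over the 4 libraries to under 6 CPM, Mt1 and Slc15a2 are low in both 2DG libraries, and the Gzmb diamonds lie above the bars, at 579 to 838 CPM.

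Transcription factors and receptors gave a mixed picture with aPDL1. Of 17 exhaustion and effector factors, Eomes, Maf and Ikzf2 were called lower. Eomes, a T-box factor, stood at 121, 135, 70.0 and 80.1 CPM and was also lower in the Cd8 gate. Ikzf2, the factor Helios of regulatory T cells, stood at 2380.0, 1360.0, 970.0 and 792 CPM in all members and at 582, 420.0, 398 and 422 CPM in the Cd8 gate, where it was not called. In the Cd8 gate Il2ra, the high-affinity interleukin 2 receptor chain, was higher, at 34.2, 48.5, 107 and 121 CPM. Over all members it was not, at 315, 193, 267 and 204 CPM, beside the larger share of Foxp3 cells in ctrl. Icos, a costimulatory receptor, and Nrp1 were also called higher in the Cd8 gate. Satb1, a chromatin organiser, stood at 113, 164, 190.0 and 383 CPM, highest in 2DG_aPDL1. Immediate early genes had medians of -0.55 and 0.71, so their signs differed between the pairs.

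The PD-1 pathway itself did not pass the size rule in either comparison. Pdcd1 in the Cd8 gate stood at 134, 149, 268 and 217 CPM, with both aPDL1 libraries above both others. Cd274, which encodes PD-L1, stood at 245, 128, 114 and 118 CPM in the members, highest in ctrl. Of 13 inhibitory receptors Cd160, a receptor for HVEM, was called higher in both comparisons, at 19.4, 51.0, 48.6 and 78.3 CPM. Ifng, the interferon gamma gene, stood at 117, 314, 359 and 459 CPM, lowest in ctrl, with ratios of 1.61 and 0.55 for aPDL1 and 1.42 and 0.36 for 2DG, so the second pair missed 0.58 in each. Oxidative phosphorylation genes had 42 of 51 above 0 in both aPDL1 pairs, beside 2212 of all 8504 genes, with medians of 0.31 and 0.25 and 0 called. Glycolysis genes had medians of 0.03 and 0.03.

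Histone transcripts were looked at after their values were seen, because 3 of the 8 genes with the largest ratios were histones. Replication-dependent histones are made in S phase, and most of their messages lack a poly(A) tail, so a poly(A) method reads them in part. The 66 such genes summed to 3762, 3695, 4482 and 6615 CPM in the members and to 906, 591, 503 and 648 CPM in T cells without Mki67 or Top2a. In members with 2 to 5 UMIs they were flat, at 739, 710.1, 697 and 711 CPM. In the upper range they stood at 7879, 7388, 8752 and 12740.0 CPM. The combination library was thus highest, and the difference lay in the upper range. Hist1h2ae, a histone H2A gene, stood at 372, 380.0, 639 and 807 CPM in the members, and Hist1h2ab at 106, 157, 228 and 299 CPM.

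Hist1h1b, a linker histone gene, stood at 420.0, 465, 467 and 1070.0 CPM, and Hist1h2ap, a histone H2A gene, at 561, 413, 449 and 1050.0 CPM. These had the largest differences in CPM between 2DG_aPDL1 and aPDL1. Members with over 1% of their UMIs from these genes were 12 (12.6%), 70 (9.87%), 75 (14.3%) and 93 (20.4%, 16.8 to 24.4%). In the upper range they were 44.4%, 30.7%, 41.6% and 59.2% (51.1 to 67.0%). No cell held more than 1.65% of the histone UMIs of the members of 2DG_aPDL1, against 10.5% in ctrl. Of 47 histone genes with 100 or more UMIs, 33 were highest in 2DG_aPDL1. The share of all genes highest in that library was not counted, and the 47 were read in the same cells. In the Cd8 gate the sums were 4295, 3618, 5113 and 7251 CPM, and in Cd4 members without Foxp3 3024, 4015, 3109 and 4300.0 CPM. The cell with the most histone UMIs held 28.1%, 5.08%, 2.33% and 2.09% of those in the Cd8 gate. Among the Cd4 members without Foxp3 such a cell held 23.8%, 6.33%, 12.9% and 15.6%, so their order rests in part on single cells. In proliferating Lyz2 cells the sums had another order, 2640.0, 2170.0, 1176 and 1012 CPM, with 2DG_aPDL1 lowest.

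**Figure D5:**
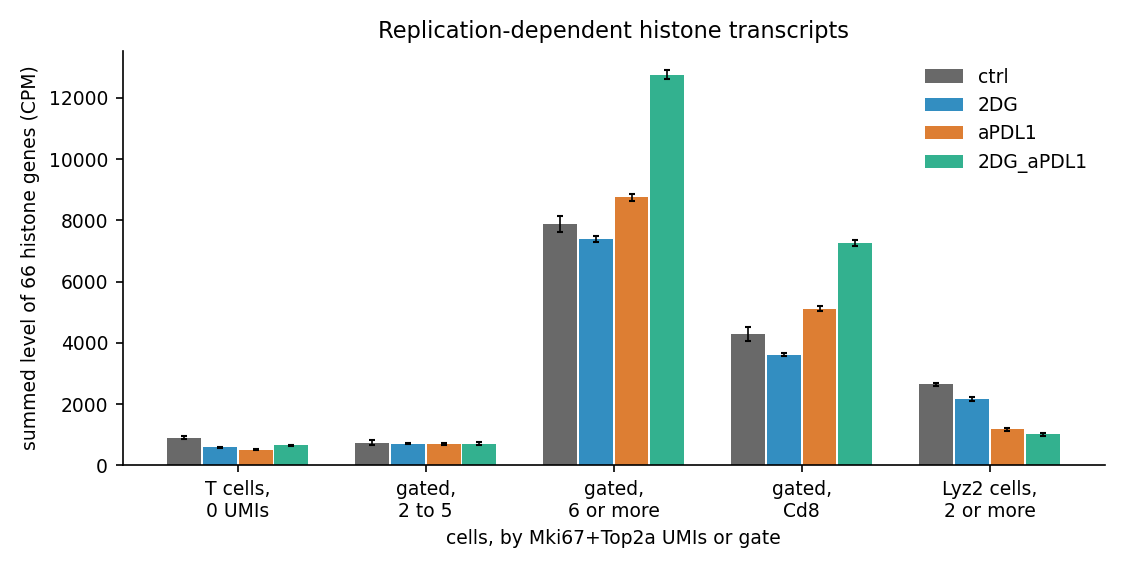
Summed level of 66 replication-dependent histone genes (CPM from 0, with exact Poisson 95% intervals) in T cells without Mki67 or Top2a, in members by their Mki67 and Top2a UMIs, in members of the Cd8 gate and in proliferating Lyz2 cells, by library. The bar of 2DG_aPDL1 is the tallest among members with 6 or more UMIs and in the Cd8 gate, and the shortest among Lyz2 cells.

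How far the calls rested on single cells was read by leaving out, for each gene and library, the cell with the most UMIs of that gene, an alternative added after the data were seen. Of the 36 and 121 genes called with 2DG, 29 (80.6%) and 61 (50.4%) were still called. For aPDL1 it was 55 of 69 (79.7%) and 81 of 120 (67.5%), and for members against other T cells 185 of 227 (81.5%) and 53 of 60 (88.3%). Genes with 50% or more of a library's UMIs in 1 cell were 2 and 11 of the 2DG calls and 1 and 9 of the aPDL1 calls. Not each lost call was a lost fold. Of the 7 and 60 calls lost with 2DG, 5 and 13 still had ratios past 1.5-fold in both pairs with too few UMIs left, and 0 and 10 turned direction in a pair. Of the 14 and 39 lost with aPDL1, 7 and 10 kept such ratios, and 0 and 6 turned. Of the 42 and 7 lost against other T cells, 28 and 7 kept such ratios. Leaving out 1 cell removes more of ctrl, with 95 members, than of the other libraries.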

How the data were processed

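Raw UMI counts per gene and barcode were deposited by the authors as filtered matrices, written by Cell Ranger 7.0.0 per the file headers; the submitters' processing notes name Cell Ranger 3.1.0 and mm10, and nothing read here states whether introns were counted. No normalization was in the deposited counts. The 4 libraries, 1 per group, hold 38068 barcodes and 32285 genes, with 61859753 to 73885214 UMIs each. Members were gated on raw UMIs, as the opening states, and counts were summed per library into CPM. Log2 ratios used 0.5 added UMIs and the size rule of 1.5-fold with 50 or more UMIs. Exact binomial (Clopper-Pearson) and Poisson 95% intervals cover counting error only. The rule of size was tested on simulated data.

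The members, 25 gene lists, 15 marker lists and rules were chosen with earlier results of these data known. Named genes were 36 fixed ones, up to 6 per direction of each treatment comparison by the smaller ratio, up to 8 per direction against other T cells outside the cell cycle lists, and the 3 list members with the most UMIs; genes named because they passed within a list were chosen after their values were seen. 1 gene that the rule named is not reported here. Mx1 and Mx2 had no row. Doublets were kept in the main values. Scrublet's automatic cut marked 0.011% of ctrl cells and was not used. Cells were marked instead by score at 0.8% per 1000 barcodes (scanpy 1.11.5). Other tools were python 3.11.15, numpy 2.4.6, pandas 2.3.3, scipy 1.17.1, matplotlib 3.10.9, R 4.3.3, and, for scaling factors alone, edgeR 4.0.16 (TMM) and DESeq2 1.42.0. Alternatives were stricter gates, doublet removal, thinning, scaling, UMI minimum, added UMIs, per-cell means and the Cd8 gate. RefSeq tables of GRCm38.p6 gave the promoters.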

Additional observations from a re-analysis of the deposited data

Results flagged for a closer look

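In the aPDL1 comparison 3 genes of the fixed list had opposite directions in the pairs, and the difference between the pairs was not tested. Il7r stood at 361, 87.5, 136 and 171 CPM in ctrl, 2DG, aPDL1 and 2DG_aPDL1, with log2 ratios of -1.41 for aPDL1 over ctrl and 0.97 for 2DG_aPDL1 over 2DG, which are 2.38 apart. Cdkn1a stood at 121, 46.8, 53.8 and 73.5 CPM, with ratios of -1.17 and 0.65, 1.83 apart. Ctla4 stood at 838, 560.0, 529 and 849 CPM, with ratios of -0.66 and 0.60, 1.27 apart. For each gene ctrl was high and 2DG_aPDL1 lay above 2DG and aPDL1, while in the Cd8 gate Il7r had ratios of 0.29 and 1.52.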

How the results depend on the processing

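With 3 or more Mki67 and Top2a UMIs the members were 12.4%, 15.6%, 12.0% and 9.82% of T cells, with 6 or more (added after the data were seen) 5.99%, 8.10%, 6.63% and 5.69%, and at 3000 UMIs 10.7%, 11.4%, 10.8% and 8.63%. At 6 or more the Cd8 share in 2DG_aPDL1 was 75.8%. Against other T cells, 140 genes were lower at 3 or more, and 423 higher and 333 lower at 6 or more. Higher with 2DG were 68 genes with TMM, 63 with DESeq2 factors, 14 with 5 UMIs added and 62 without each gene's top cells, where 70 were lower. A minimum of 20 UMIs gave 110 higher and 265 lower with 2DG, 113 and 253 with aPDL1, and 436 and 92 against other T cells. A minimum of 100 gave 19 and 54 with 2DG, 69 lower with aPDL1 and 113 higher against other T cells. Per-cell means gave 31 lower against other T cells. The Cd8 gate gave 73 lower with 2DG and 70 higher against other T cells.

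Opposite directions in at least 1 pair or library appeared for Dscaml1 (1.84 at 3 or more, 2.03 at 6 or more, 1.57 in the Cd8 gate, 0.84 without top cells), Mgl2 (4.33 without Lyz2 UMIs, 3.29 at 6 or more, 1.26 in the Cd8 gate, 4.20 without top cells), Sox5 with 2DG (-0.55 without marked doublets), Ralyl (0.54 at 6 or more, 0.04 in the Cd8 gate), and, in the Cd8 gate, Gzmb (-0.03) and Prickle1 (0.04). The Cd8 gate values of Cd4 (0.04), which that gate holds at 0 UMIs, and of Trdc (0.77 in ctrl, with 0 UMIs in both groups) come from the added UMIs and show no direction; Trdc was at -0.64, -1.78 and -3.94 in the other libraries. Fewer genes or cells enter the stricter settings; beyond that the cause was not tested. Of the comparisons' main values 122 of the alternatives kept their size and 34 did not. For genes this compares the number of calls and not which genes were called. At 6 or more UMIs, 8 of the 36 genes higher and 20 of the 121 lower with 2DG were still called. Of these genes 18 and 40 still had enough UMIs there. For aPDL1 it was 28 of 69 and 43 of 120, with 46 and 58 still having enough UMIs. Against other T cells it was 188 of 227 and 59 of 60. No paired analysis was possible because each group is 1 library. The 95 ctrl members limit every ratio that contains ctrl, and within the Cd8 gate such ratios and levels rest on 25 ctrl members.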
